A study of Homo sapiens with 8 samples.

Results

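Described here are 10 nuclear-encoded factors that transcribe, copy or package human mitochondrial DNA (mtDNA), stabilise its transcripts or, for TFB1M, methylate mitochondrial ribosomal RNA. They are TFAM, TFB1M, TFB2M, POLRMT, TEFM, POLG, POLG2, TWNK, LRPPRC and SLIRP, chosen by gene symbol for their known functions, with earlier results of these data known. All 10 were found among the 38551 genes with counts, all 10 passed the filter on low counts that left 13179 genes for testing, and their counts ran from 245 to 11811 per library. RNA-sequencing was done on MOLM-13 cells, an established line of human KMT2A-rearranged acute myeloid leukemia that was grown in medium with serum. In 4 libraries the cells had received the diluent DMSO, and in the other 4 they had received 100 nM PR-957 (ONX-0914), an inhibitor of the immunoproteasome subunit PSMB8, each for 72 h. All values come from a single cell line, and the labels do not say whether the 4 libraries of a group came from separate cultures, so p-values measure only the spread between these libraries. Total counts per library were between 16675036 and 23111223.

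Mitochondria hold their own small circular genome (chrM), which encodes 13 proteins of the respiratory chain and the ATP synthase. It is read by a dedicated RNA polymerase, POLRMT, which needs TFAM to bend and mark the promoter, TFB2M to open it, and TEFM to keep elongating. The long transcripts are cut into single mRNAs, and the complex of LRPPRC with SLIRP binds these mRNAs and is known to favour their stability and poly(A) tailing. The genome itself is copied by the polymerase POLG with its accessory subunit POLG2 and the helicase TWNK, while TFAM also coats mtDNA and packs it into nucleoids. The comparison asked whether RNA of this nuclear machinery differed after PR-957 and how it stood beside the chrM-encoded RNA of the same libraries.

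Promoters of genes for mitochondrial proteins are known for sites of the factors NRF1, GABP (an ETS factor) and YY1. The 250 bases before the RefSeq transcription start (GRCh38.p14) could be matched for 9 of the 10 genes and were searched on both strands for GCGCNTGC (NRF1 core), CCGGAAG (ETS core) and AAGATGGC (YY1 core). Shown are the promoters of the pair of partners whose RNA moved apart the furthest (SLIRP and LRPPRC), followed by the DNA-packaging factor and the polymerase, with matches in capitals. They lie at chr14:77707821-77708070 (plus strand), chr2:43995990-43996239 (minus strand), chr10:58385160-58385409 (plus strand) and chr19:633538-633787 (minus strand).
SLIRP: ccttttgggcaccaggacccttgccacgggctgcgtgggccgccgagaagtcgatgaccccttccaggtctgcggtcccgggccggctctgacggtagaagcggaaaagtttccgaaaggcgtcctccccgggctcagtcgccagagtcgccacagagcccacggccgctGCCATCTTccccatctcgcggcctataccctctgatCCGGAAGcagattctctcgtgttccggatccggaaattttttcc
LRPPRC: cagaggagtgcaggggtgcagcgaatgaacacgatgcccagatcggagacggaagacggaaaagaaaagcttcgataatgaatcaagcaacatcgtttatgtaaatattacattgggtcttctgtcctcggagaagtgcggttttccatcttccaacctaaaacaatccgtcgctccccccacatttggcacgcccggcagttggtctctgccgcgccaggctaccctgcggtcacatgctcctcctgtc
TFAM: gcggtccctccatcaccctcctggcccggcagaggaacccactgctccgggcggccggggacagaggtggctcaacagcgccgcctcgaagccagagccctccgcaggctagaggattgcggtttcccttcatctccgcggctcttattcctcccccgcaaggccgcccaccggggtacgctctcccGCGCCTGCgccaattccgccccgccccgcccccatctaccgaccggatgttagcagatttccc
POLRMT: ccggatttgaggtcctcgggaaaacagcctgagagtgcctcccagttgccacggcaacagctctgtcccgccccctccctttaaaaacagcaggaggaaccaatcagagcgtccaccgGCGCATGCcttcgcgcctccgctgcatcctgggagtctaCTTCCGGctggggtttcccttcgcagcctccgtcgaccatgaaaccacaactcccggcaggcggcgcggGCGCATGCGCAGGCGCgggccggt
The SLIRP promoter held an ETS core and a YY1 core, the LRPPRC promoter held none of the searched letters, the TFAM promoter held an NRF1 core, and the POLRMT promoter held an ETS core and several NRF1 cores, some of which overlap. The RefSeq start lies 267 bases downstream of the start of TFAM in the count table and 1391 bases downstream of that of TEFM. The windows of these genes thus lie inside the span of the counted gene. The NRF1 core was found in 6 of the 9 promoters (TFAM, TFB1M, TFB2M, POLRMT, TEFM and POLG2), against 10.1% of all 35116 promoters in the table and 16.3% of the promoters of tested genes. The ETS core was in 4 of 9 (TFB1M, POLRMT, POLG2 and SLIRP), against 8.52% of all promoters and 14.2% of those of tested genes, and the YY1 core in 1 of 9 (SLIRP), against 1.36% and 1.87%. These shares count every promoter (14379 for 9912 tested genes). Each factor entered with 1 promoter only, the nearest to the start of the counted gene. Of the genes called below, SLIRP and POLG (higher) and LRPPRC (lower) had no NRF1 core in this window, and TFAM and TFB1M (lower) had it. A match is only a description of these letters in this window.

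PR-957 moved the factors in both directions. With edgeR's quasi-likelihood test and a threshold of 0.05 on the p adjusted over all genes tested (Benjamini-Hochberg), SLIRP and POLG rose, LRPPRC, TFB1M and TFAM fell, and the remaining 5 were not called. Calls were common in this comparison, since 46.6% of the 13179 genes were called in either direction, 23.1% as higher and 23.5% as lower. The factors thus had a share of called genes (5 of 10, with 2 higher and 3 lower) near the background. The groups did not overlap for 4 of the 10, against 42.5% of all genes tested. The median log2 fold change of the factors was -0.07, beside a median of 0.003 over all genes tested. In bulk RNA, fewer cells of a type and less RNA per cell cannot be told apart.

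**Figure D1:**
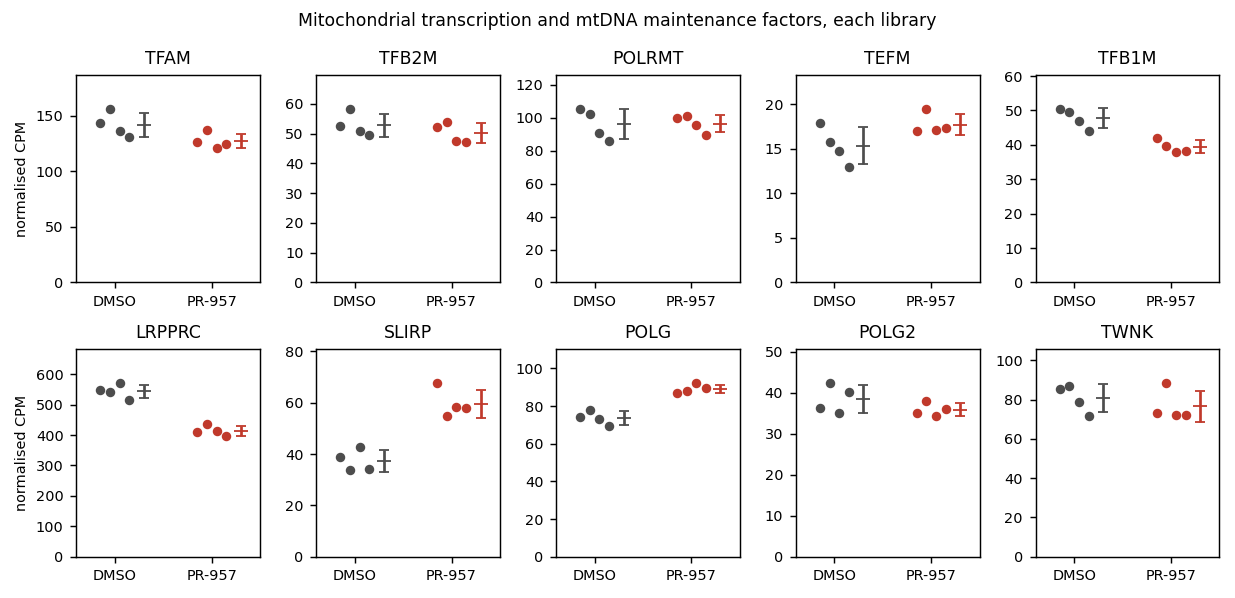
Normalised CPM (counts scaled to a common library size, vertical axes starting at 0) of the 10 factors in each of 4 DMSO (grey) and 4 PR-957 (red) libraries, with horizontal marks for the mean and bars for 1 SD. The groups are apart for TFB1M, LRPPRC, SLIRP and POLG and overlap for the other 6.

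The partners LRPPRC and SLIRP, which act as a complex on mitochondrial mRNA, changed in opposite directions. LRPPRC, a large RNA-binding protein of the pentatricopeptide repeat family, is encoded at chr2:43886224-43995989 on the minus strand. Its level, in CPM (counts brought to a common library total and normalised between libraries), was 548, 541, 569 and 516 in DMSO replicates 1 to 4 and 410, 437, 413 and 395 in PR-957 replicates 1 to 4. Every treated library was below every control. The mean was 543 ± 22.0 CPM in controls and 414 ± 17.2 CPM after treatment (SD, n = 4 each), and the fitted log2 fold change was -0.39 (SE 0.05, edgeR adjusted p = 8.22e-06). SLIRP, a small protein with an RNA recognition motif, is encoded at chr14:77708071-77717598 on the plus strand. It stood at 38.9, 33.6, 42.8 and 34.2 CPM in the DMSO libraries and at 67.5, 54.8, 58.4 and 58.1 CPM in the PR-957 libraries. The groups were again apart, now with the treated libraries on top, and the highest value was that of PR-957 replicate 1. Means were 37.4 ± 4.32 CPM in controls and 59.7 ± 5.47 CPM after treatment, and the fitted log2 fold change was 0.68 (SE 0.08, edgeR adjusted p = 2.38e-06), the largest in size among the 10 factors.

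Since both are measured in the same library, their ratio does not depend on how libraries are scaled. Per kilobase of exon, the log2 ratio of LRPPRC to SLIRP counts was 0.15, 0.35, 0.07 and 0.26 in the DMSO libraries and -1.06, -0.67, -0.84 and -0.89 in the PR-957 libraries. The ratio was thus above 0 in every control and below 0 in every treated library. Its mean went from 0.21 ± 0.12 to -0.86 ± 0.16, a difference of -1.07 on the log2 scale, or 0.476 of the control ratio. An exact two-sided permutation test over the libraries gave p = 0.0286, the smallest that 4 against 4 allows, and p = 0.0571 after adjustment over the 6 ratios compared. With LRPPRC lower and SLIRP higher in every treated library, the groups of this ratio had to be apart. The permutation p thus adds nothing to the calls of both genes. These are RNA ratios and say nothing of the protein complex.

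Of the polymerase that copies mtDNA, the RNA of the catalytic subunit rose, while that of the accessory subunit and of the helicase was not called. POLG (chr15:89316305-89334824, minus strand) stood at 74.2, 77.8, 73.4 and 69.3 CPM in the DMSO libraries and at 86.7, 88.2, 92.0 and 89.8 CPM in the PR-957 libraries. All treated libraries lay above all controls. POLG averaged 73.7 ± 3.48 CPM in controls and 89.2 ± 2.23 CPM after treatment, with a log2 fold change of 0.28 (SE 0.06, edgeR adjusted p = 0.000396). On the opposite strand, FANCI shares 431 exon bases with POLG, or 9.63% of its exon length, and FANCI itself was not called (log2 fold change 0.06, edgeR adjusted p = 0.434). POLG2, which holds the catalytic subunit on its template, ranged from 35.1 to 42.3 CPM in controls and from 34.4 to 38.1 CPM after treatment (log2 fold change -0.10, 95% interval -0.25 to 0.05, edgeR adjusted p = 0.247). MILR1 on the opposite strand shares 10.6% of the exon bases of POLG2, and fell by 0.22 on the log2 scale (edgeR adjusted p = 0.0324). The headers give the counting as done by strand. TWNK, the helicase that unwinds mtDNA ahead of POLG, had values of 71.8 to 87.2 and 72.2 to 88.2 CPM (log2 fold change -0.08, interval -0.23 to 0.08, edgeR adjusted p = 0.416). Without PR-957 replicate 2, the highest library, TWNK was at -0.15 on the log2 scale (edgeR adjusted p = 0.0850). For both genes the groups overlapped, and the intervals leave room for changes of the size seen for TFAM. The log2 ratio of POLG to POLG2 per kilobase was -0.47, -0.62, -0.44 and -0.72 in DMSO and -0.19, -0.29, -0.08 and -0.18 in PR-957 libraries. Every treated library had relatively more POLG RNA than every control, by 0.37 on the log2 scale in the mean (exact permutation p = 0.0286, adjusted over the 6 ratios 0.0571).

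**Figure D2:**
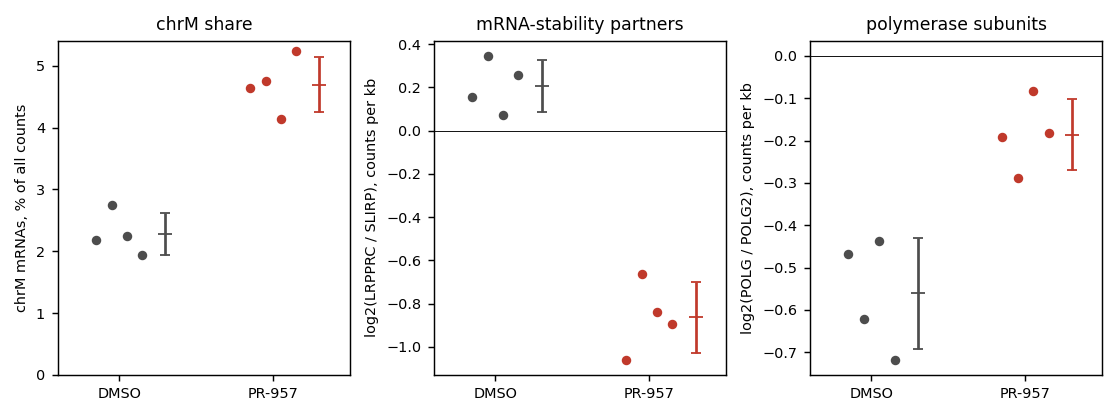
Share of all counts in chrM mRNAs in percent (left, axis from 0), log2 ratio of LRPPRC to SLIRP (middle) and log2 ratio of POLG to POLG2 (right), both ratios in counts per kilobase, by library with the mean and 1 SD. In each panel the 4 DMSO (grey) and 4 PR-957 (red) libraries do not overlap.

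Of the transcription factors proper, TFAM fell in the analysis of all libraries, and TFB2M, POLRMT and TEFM were not called. The related rRNA methyltransferase TFB1M fell. TFAM (chr10:58385143-58399230, plus strand) stood at 144, 156, 137 and 131 CPM in the DMSO libraries and at 126, 137, 121 and 125 CPM in the PR-957 libraries. The groups overlapped, since PR-957 replicate 2 lay above DMSO replicates 3 and 4. It averaged 142 ± 10.8 CPM in controls and 127 ± 6.60 CPM after treatment, with a log2 fold change of -0.15 (SE 0.06, interval -0.28 to -0.03), and its edgeR adjusted p of 0.0446 was close to the threshold. The call was lost in 10 of 20 alternative analyses, among them DESeq2 (adjusted p = 0.0523) and scaling by library totals alone (edgeR adjusted p = 0.307). These 10 include the fits without DMSO replicate 1 or 2, or without PR-957 replicate 1, 3 or 4 (edgeR adjusted p = 0.0720 to 0.180). The call was kept in the other 10. Among those were fits with the replicate number as a block (edgeR adjusted p = 0.00789) and with a batch term for replicates 1 and 2 against the others (edgeR adjusted p = 0.0181).

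TFB1M and TFB2M are related proteins of the methyltransferase family, of which TFB2M opens the promoter with POLRMT while TFB1M methylates the small mitochondrial ribosomal RNA. TFB1M (chr6:155229871-155314497, minus strand) stood at 50.4, 49.6, 46.9 and 44.1 CPM in the DMSO libraries and at 41.9, 39.6, 37.9 and 38.2 CPM in the PR-957 libraries. Each treated library was below the lowest control. TFB1M averaged 47.7 ± 2.84 CPM in controls and 39.4 ± 1.86 CPM after treatment, with a log2 fold change of -0.28 (SE 0.06, edgeR adjusted p = 0.00167). TIAM2, which overlaps 14.2% of its exon bases on the opposite strand, had 0 to 5 counts per library. TFB2M (chr1:246540561-246566261, minus strand) overlapped between groups, at 49.5 to 58.2 CPM in controls and 47.1 to 53.9 CPM after treatment (log2 fold change -0.07, interval -0.21 to 0.07, edgeR adjusted p = 0.417). The log2 ratio of TFB2M to TFB1M per kilobase was 2.60 ± 0.07 in DMSO and 2.81 ± 0.06 in PR-957 libraries, with no overlap between the groups (exact permutation p = 0.0286, adjusted over the 6 ratios 0.0571).

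POLRMT (chr19:617221-633557, minus strand) had the smallest estimate. Its values were 86.1 to 105 CPM in controls and 89.6 to 101 CPM after treatment, with means of 96.0 ± 9.13 and 96.4 ± 5.11 CPM. The log2 fold change was 0.01 (interval -0.13 to 0.15, edgeR adjusted p = 0.940), and the interval does not reach the sizes estimated for LRPPRC or SLIRP. TEFM (chr17:30898983-30907629, minus strand), the elongation factor, had 17.9, 15.8, 14.8 and 12.97 CPM in DMSO replicates 1 to 4 and 16.99, 19.5, 17.1 and 17.4 CPM in PR-957 replicates 1 to 4. It was the least counted of the factors, its groups overlapped through DMSO replicate 1, and PR-957 replicate 2 was the highest library. The log2 fold change of TEFM was 0.21 (SE 0.10) with an edgeR adjusted p of 0.0871, and it moved with single libraries. It was 0.29 without DMSO replicate 1 (edgeR adjusted p = 0.0273), 0.13 without DMSO replicate 4 (0.262) and 0.16 without PR-957 replicate 2 (0.232). The ratios of POLRMT to TEFM and of TFAM to POLRMT differed by -0.20 and -0.16 on the log2 scale, with overlapping groups (exact permutation p = 0.0571 each, adjusted 0.0686), and that of TFAM to TWNK by -0.07 (p = 0.143, exact permutation test).

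Compared between genes as normalised CPM per kilobase of exon, the mRNA-binding partners stood above the other factors. In DMSO libraries, LRPPRC was at 80.3 ± 3.25 and SLIRP at 69.9 ± 8.08 CPM per kilobase, with overlapping ranges. TFB2M (29.6 ± 2.15), TFAM (26.4 ± 2.02), POLG2 (24.3 ± 2.13), POLRMT (21.4 ± 2.04) and TWNK (21.4 ± 1.86) followed, and none of these was apart from its neighbour in the order. POLG was lower at 16.5 ± 0.776, and TEFM (5.69 ± 0.763) and TFB1M (4.86 ± 0.290) were lowest, with ranges that overlapped each other. In PR-957 libraries, SLIRP stood alone at the top with 112 ± 10.2 CPM per kilobase, ahead of LRPPRC with 61.1 ± 2.54. POLG, at 19.9 ± 0.499, then overlapped TWNK at 20.2 ± 2.07, and TFB1M at 4.01 ± 0.190 fell apart from TEFM at 6.57 ± 0.434. The low value of TFB1M per kilobase goes with the longest exon length in the group, 9819 bases in the authors' gene models.

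All 13 protein-coding chrM genes, called chrM mRNAs here, rose with PR-957, while the nuclear factors moved little or in both directions. Counts are by gene, and some of these genes overlap (ATP8 and ATP6 by 46 bases, ND4L and ND4 by 7). The share of all counts in chrM mRNAs was 2.19, 2.75, 2.24 and 1.94% in DMSO replicates 1 to 4 and 4.65, 4.76, 4.15 and 5.24% in PR-957 replicates 1 to 4. The lowest treated library was well above the highest control. The mean share was 2.28 ± 0.340% and 4.70 ± 0.449%, a difference of 2.42 percentage points or 2.06-fold (exact permutation p = 0.0286, adjusted over the 2 shares compared 0.0571). With the genes of ribosomal proteins left out of the total, the shares were 2.75 ± 0.395% and 5.44 ± 0.495%. The table holds the mRNA genes of chrM only, and its rRNAs and tRNAs were not analysed here. The labels give poly(A) RNA as the molecule, so more chrM mRNA and longer or more frequent poly(A) tails cannot be told apart. A share of counts is relative, so less nuclear-encoded RNA per cell cannot be told apart from more chrM mRNA either.

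**Figure D3:**
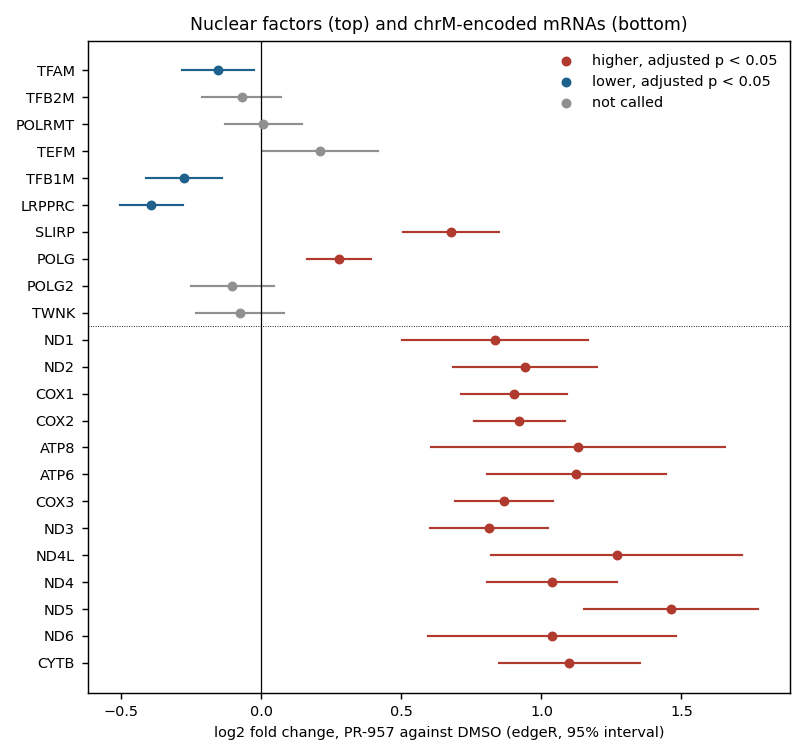
Log2 fold change of PR-957 against DMSO with its 95% interval (edgeR) for the 10 nuclear factors (above the dotted line) and the 13 chrM mRNAs (below it), coloured by call. All chrM intervals lie above 0 (estimates 0.81 to 1.46), whereas the factors spread from -0.39 for LRPPRC to 0.68 for SLIRP.

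The log2 fold changes of the chrM mRNAs ran from 0.81 for ND3 to 1.46 for ND5, with a median of 1.04, and for each of the 13 the groups were apart. Among subunits of cytochrome c oxidase, COX1 rose from 7677 ± 1099 to 14332 ± 1040 CPM (log2 fold change 0.90, edgeR adjusted p = 5.48e-07), and COX2 and COX3 rose by 0.92 and 0.87 on the log2 scale. The ATP synthase subunits ATP6 and ATP8, whose reading frames overlap by 46 bases, rose by 1.12 and 1.13, and CYTB of complex III rose by 1.10. Among complex I subunits, ND5 rose from 838 ± 135 to 2313 ± 343 CPM (edgeR adjusted p = 3.01e-05). ND6 is encoded on the other strand of mtDNA than the remaining mRNAs, is read from a different promoter, and rose by 1.04 (edgeR adjusted p = 0.00361). As a share of chrM counts, ND6 was at 0.751 ± 0.0970% in DMSO and 0.789 ± 0.0538% in PR-957 libraries, with overlapping groups (exact permutation p = 0.629).

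Set directly beside each factor, the chrM RNA of a library exceeded that of its regulators by more after PR-957. For each TFAM count there were 165 ± 13.05 chrM counts in controls and 360 ± 31.7 after treatment. For each POLRMT count there were 244 ± 26.2 and 476 ± 58.8, and for each LRPPRC count 43.1 ± 5.95 and 111 ± 12.5. SLIRP was the exception among the 10. For each SLIRP count there were 547 to 830 chrM counts in the controls and 686 to 863 after treatment. Its mean still went from 634 ± 132 to 771 ± 98.6, and its groups overlapped through DMSO replicate 2 alone. For the other 9 factors the groups were apart. These ratios are given as a description, since the chrM counts are common to all of them.

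No label names a batch, but the libraries showed a second structure that crossed the treatment. Over all tested genes, the deviations of replicates 1 and 2 from their group means correlated positively across the treatments (r from 0.0737 to 0.213). These r are across genes, which are not independent replicates. Those of replicates 3 and 4 also correlated positively (0.0905 to 0.198), and all correlations between these pairs were negative. Deviations from a group mean sum to 0, so the negative signs follow in part from the positive ones. Within replicates 1 and 2 alone, the log2 fold changes of SLIRP and LRPPRC were 0.76 and -0.36, and within replicates 3 and 4 alone they were 0.60 and -0.43. Those of POLG were 0.20 and 0.35, those of TFB1M -0.29 and -0.26, and those of TFAM -0.19 and -0.12. All were called in both pairs (edgeR adjusted p = 7.96e-09 to 0.0334), other than TFAM in replicates 3 and 4 (edgeR adjusted p = 0.229).

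The labelled cell type was checked with markers of myeloid leukemia, all 8 of which were above 1 CPM in every library. Their summed level was 1580 to 1608 CPM in DMSO and 2347 to 2663 CPM in PR-957 libraries, but the markers did not move together. The means of LYZ and MPO were 149 and 170 CPM in controls and 843 and 519 CPM after treatment, whereas those of FLT3 and PTPRC were 331 and 201 CPM in controls and 178 and 134 CPM after treatment. Of 8 markers of other cell types, PECAM1, which myeloid cells also carry, was above 1 CPM in every library and CD3E had 0 counts throughout. Their sum was 42.2 to 64.2 and 84.4 to 90.3 CPM. The part of these differences in the values of the mitochondrial factors was not tested.

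Genes of the same pathway were described by 6 lists chosen by function, and in each of them changes ran in both directions. Of 13 tested genes of mtDNA replication and repair, 6 rose and 3 fell (69.2% called, against 46.6% of all genes tested, and a median log2 fold change of 0.15). The flap endonuclease FEN1, which also acts in the nucleus, rose from 94.8 ± 10.1 to 163 ± 3.51 CPM (log2 fold change 0.78, edgeR adjusted p = 1.73e-08). ATAD3B, an inner membrane ATPase whose near-identical copy ATAD3A makes its counts uncertain, rose by 0.61. The DNA ligase LIG3 fell by 0.26 (edgeR adjusted p = 0.00582) and the primase-polymerase PRIMPOL fell by 0.24 (edgeR adjusted p = 0.0371), both with overlapping groups. PRIMPOL lost its call in 10 of 20 alternative analyses (highest adjusted p = 0.405), and LIG3 within replicates 3 and 4 (edgeR adjusted p = 0.0570). SSBP1, which coats single-stranded mtDNA at the fork and was named after its values were seen, was not called (0.15, edgeR adjusted p = 0.117). In nucleotide supply, 4 of 15 genes rose and 3 fell (46.7% called, median 0.06). The thymidine kinase TK2 fell from 40.1 ± 2.27 to 28.0 ± 2.15 CPM (-0.51, edgeR adjusted p = 1.07e-05) and the pyrimidine nucleotide carrier SLC25A36 fell from 78.6 ± 7.07 to 52.4 ± 2.90 CPM (-0.59, edgeR adjusted p = 9.36e-07), while the nucleoside diphosphate kinase NME4 and the thymidine phosphorylase TYMP rose by 0.33 and 0.42. The groups overlapped for TYMP, which within replicates 3 and 4 was at 0.26 and not called (edgeR adjusted p = 0.164).

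Among genes that process or modify mitochondrial RNA, 11 of 28 rose and 2 fell (median 0.09). With 46.4% called, the list was near the background of 46.6% of all genes tested (23.1% higher, 23.5% lower). MTERF2, of the mitochondrial termination factor family, rose from 8.92 ± 1.34 to 13.2 ± 1.41 CPM (0.57, edgeR adjusted p = 0.000736), but it was at 0.27 and not called within replicates 1 and 2 (edgeR adjusted p = 0.127) and at 0.86 within replicates 3 and 4. HSD17B10, a subunit of mitochondrial RNase P, rose from 66.0 ± 6.05 to 92.5 ± 1.74 CPM (0.49, edgeR adjusted p = 3.7e-06). The pseudouridine synthase PUS1 fell from 322 ± 31.4 to 225 ± 17.05 CPM (-0.52, edgeR adjusted p = 1.1e-05), and MTO1, a tRNA-modifying enzyme, fell by 0.35. In RNA stability and decay, 7 of 17 rose and 3 fell (58.8% called, against 46.6% of all genes tested, median 0.08). FASTKD5, which is needed to process junctions without a tRNA, rose by 0.63 (edgeR adjusted p = 4.14e-06) and its relative FASTK rose by 0.40. PTCD2, a pentatricopeptide repeat protein like LRPPRC, fell from 23.1 ± 1.88 to 15.5 ± 1.30 CPM (-0.58, edgeR adjusted p = 2.69e-05), and ANGEL2 fell by 0.42.

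**Figure D4:**
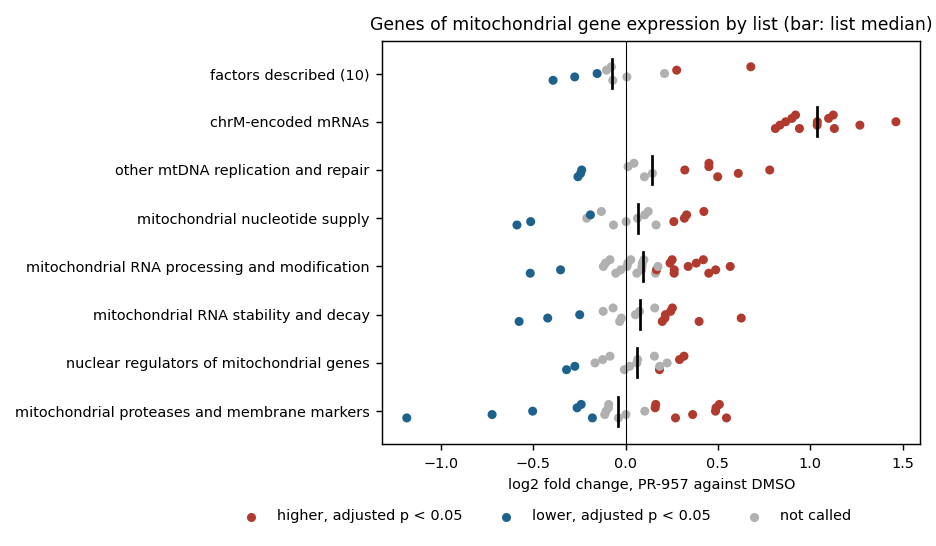
Log2 fold change of each tested gene (points, coloured by call) in the 10 factors, the 13 chrM mRNAs and 6 lists of mitochondrial gene expression, with a bar at each median. The chrM mRNAs stand to the right of 0 with a median of 1.04, while each nuclear list has a median between -0.07 and 0.15 and called genes on both sides.

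Of 15 nuclear regulators of mitochondrial genes, 3 rose and 2 fell (33.3% called, against 46.6% of all genes tested, and a median of 0.06). The count of 5 became 8 with library totals alone, with the replicate number as a block, or at an unadjusted p under 0.05. Of the factors whose core letters were searched in the promoters, NRF1 (-0.17, edgeR adjusted p = 0.0651), GABPA (0.06, edgeR adjusted p = 0.504) and YY1 (0.07, edgeR adjusted p = 0.305) were not called. HCFC1, a co-regulator, and PPARGC1B, a coactivator of mitochondrial biogenesis, rose by 0.32 and 0.29, while SP1 and GABPB2, a subunit of GABP, fell by 0.32 and 0.27. PPARGC1B was at 0.18 and not called within replicates 1 and 2 (edgeR adjusted p = 0.166). Of mitochondrial proteases and membrane markers, 8 of 21 rose and 6 fell (66.7% called, median -0.04). LONP1, a matrix protease known to degrade TFAM that is not bound to DNA, stood at 575, 547, 596 and 525 CPM in the DMSO libraries and at 249, 252, 247 and 238 CPM in the PR-957 libraries. LONP1 averaged 561 ± 30.9 CPM in controls and 247 ± 6.06 CPM after treatment, with a log2 fold change of -1.18 (SE 0.05, edgeR adjusted p = 2.14e-12), which exceeded that of each of the 10 factors in size. The outer membrane import receptor TOMM20 fell from 797 ± 7.34 to 483 ± 31.5 CPM (-0.72, edgeR adjusted p = 4.91e-09), whereas the import pore TOMM40 and the protease SPG7 rose by 0.55 and 0.51.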

How the data were processed

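Poly(A) RNA of MOLM-13 cells was sequenced as paired-end reads after TruSeq library preparation. The authors trimmed reads with Trimmomatic 0.39 and aligned them to hg38 with STAR 2.7.10a. They then ran featureCounts 2.0.1 on the reverse strand against NCBI RefSeq models, with both ends required to map (per the file headers). The deposited values were raw counts, not normalised. The header named 16 libraries and the table held 8, so the others were not analysed here. Of 38557 gene rows, 6 held no values. The deposited table of the authors' own comparison (mean count, log2 fold change, standard error and p-values) was not used.

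Groups and replicate numbers came from the sample titles. PR-957 was compared with DMSO in R 4.3.3 with the quasi-likelihood test of edgeR 4.0.16 (robust glmQLFit, then glmQLFTest, two-sided, no covariate), with TMM scaling and the filterByExpr filter, which kept 13179 genes. The Benjamini-Hochberg adjustment covered all of them. CPM (counts per library brought to a common total) include the TMM factors, and ± marks the SD (n = 4). Shares and ratios were compared by exact permutation tests over the libraries. Intervals are 95% intervals of the fit.

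The factors and lists were chosen with earlier results of these data known. Named were the 10 factors, the chrM mRNAs and, in each other list, the 2 largest increases and 2 largest decreases among called genes. Any other gene was named after its values were seen. Alternatives were DESeq2 1.42.0, limma-voom (limma 3.58.1), other scalings and filters, batch or block terms, and leaving out each library. The lowest chi-square per gene between replicates was 3.18 (DMSO replicates 1 and 3), where sampling noise gives about 1, so all libraries were kept as separate replicates. In 30 genes at least 90% inside exons of a gene on the other strand, the median ratio of count density to that gene was 0.0184. The ratio was under 0.1 in 21 of them and under 0.5 in 25. It cannot show that strands were kept apart, since counting that leaves out reads shared by 2 genes would also lower it. That the counting was by strand rests on the headers alone. Promoter sequences came from RefSeq (GRCh38.p14).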

Additional observations from a re-analysis of the deposited data

Results flagged for a closer look

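In 6 of 110 groups of 4 libraries examined (5.45%), a library stood far from the other 3 relative to the range of its group, where chance gives about 1 in 20. TEFM was at 19.5 CPM in PR-957 replicate 2, against 16.99 to 17.4 CPM in the other PR-957 libraries. TWNK was at 88.2 CPM in the same library, against 72.2 to 73.4 CPM. ANGEL2 was also highest there, at 44.4 CPM against 38.6 to 39.3 CPM. The log2 ratio of TFAM to POLRMT was 0.19 in DMSO replicate 1 and 0.33 to 0.35 in the other controls. PUS1 was at 275.5 CPM in DMSO replicate 4, against 334 to 344 CPM. ND1 was at 3389 CPM in PR-957 replicate 3, against 4278 to 4330 CPM, and stayed above every control.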

How the results depend on the processing

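TFB1M, POLG, LRPPRC and SLIRP kept their direction and call in all 20 alternative analyses, as did 11 of the 13 chrM mRNAs and 19 of the 24 named genes of the other lists (not PRIMPOL, LIG3, TYMP, MTERF2 and PPARGC1B), and no called gene among these changed sign. TFAM lost its call in 10 (adjusted p = 0.00753 to 0.307 over the 20), and TEFM gained one in 3 (0.0201 to 0.447 over the 20), namely with library totals alone (0.0201), with a batch term that sets replicates 1 and 2 against the others (0.0481) and without DMSO replicate 1 (0.0273). ATP8 and ND4L lost their call within replicates 3 and 4 alone (0.0952 and 0.0572). Scaling by library totals alone moved the median of all genes to 0.08 and turned the sign of the uncalled estimates of TFB2M (0.0076) and TWNK (0.0013). The uncalled POLRMT was at -0.047 within replicates 1 and 2, and from -0.045 to 0.051 with a library left out. Called nuclear regulators went from 5 to 8 with library totals alone, with the replicate number as a block, and at an unadjusted p under 0.05. Same-numbered libraries correlated by 0.15, 0.21, 0.0985 and 0.20 for replicates 1 to 4, which does not decide whether they are pairs. No label says that numbers mark pairs, so the numbers were not used as pairs in the analysis reported. With the replicate number as a block, 6913 genes were called instead of 6143, and the differences in chrM share (2.42 percentage points) and in the log2 ratios of LRPPRC to SLIRP (-1.07), POLG to POLG2 (0.37) and TFB2M to TFB1M (0.21) had an exact p of 0.125, the smallest that 4 pairs allow. Without each library in turn these ran from 2.24 to 2.60, -1.14 to -1.01, 0.32 to 0.42 and 0.17 to 0.24, where an exact p cannot go below 0.0571. Alternatives that need chrM rRNA or tRNA counts were not run. Among the 10 factors, TEFM had the fewest counts, with 245 to 374 per library.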

Other observations

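All subunits of mitochondrial RNase P, the enzyme that cuts mitochondrial transcripts at the start of tRNAs, rose: beside HSD17B10 (log2 fold change 0.49), TRMT10C rose by 0.42 (edgeR adjusted p = 1.02e-05) and PRORP by 0.38 (edgeR adjusted p = 8.47e-05). ELAC2, which cuts at the other end of the tRNAs, rose by 0.26 (edgeR adjusted p = 0.00263). Of the protein import and inner membrane genes, TIMM23 rose by 0.49, PHB by 0.49 and TOMM22 by 0.36, while TIMM44 fell by 0.50 and PHB2, the partner of PHB, fell by 0.18 on the log2 scale, all past the threshold. IMMT was at -0.09 and not called (edgeR adjusted p = 0.209). These genes were chosen after their values were seen, and of all genes tested 23.1% were called higher and 23.5% lower.

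ND5, likewise singled out after its values were seen, took 3.41, 3.72, 3.41 and 3.78% of all chrM counts in the DMSO libraries and 4.73, 5.03, 4.87 and 5.52% in the PR-957 libraries, without overlap. COX1, the most counted chrM mRNA, took 32.8 ± 0.387% in DMSO and 31.4 ± 0.699% in PR-957 libraries (SD, n = 4). These shares of chrM counts are descriptions with no test, and they must sum to a whole within each library.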
